A study of Mus musculus with 4 samples.

Results

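The genes described here are 9 members of the IL-10 and IL-22 cytokine family and its receptors (Il10, Il19, Il20, Il22, Il24, Il10ra, Il10rb, Il22ra1 and Il22ra2), taken by name from the 50600 genes in the files. They were measured by RNA sequencing in mouse T-helper 17 (Th17) cells, CD4 T cells defined by secretion of interleukin 17. There is 1 group of 4 libraries, given in the labels as primary cells of strain C57BL/6NJ, and no allele, treatment or comparison group is labelled. Per the labels sex was not collected and age is unknown, and 1 donor label covers the 4 libraries. Headers of the count files name the cells as sorted and carry a mark of 72 hr. The labels link a protocol for differentiating CD4 T cells, whose details are not used here. Whether each library had its own animal or culture is not labelled. Xist, the RNA of the inactive X chromosome, was high in replicates 1 and 2, and Y-linked genes in replicates 3 and 4 (values below). By these transcripts replicates 1 and 2 are female and replicates 3 and 4 male. The 4 libraries therefore do not come from 1 animal, and each mean and SD over them covers both sexes. Any p-value measures only the spread between these libraries. Total counts lay between 9382661 (replicate 3) and 34542693 (replicate 1), and replicate 3 therefore has the widest counting intervals. The 6 defining genes of the labelled cell type, Cd3e, Cd4, Il17a, Il17f, Il23r and Ccr6, were each at 1 TPM or more throughout (TPM, a transcript level per length of exon, is scaled to 1 fixed total in every library).

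Cytokines of the IL-10 family are helical secreted proteins that bind pairs of class 2 cytokine receptor chains and signal through JAK kinases and mainly STAT3. IL-10 restrains inflammation and acts on leukocytes through IL-10RA and IL-10RB. IL-22, a product of Th17 cells and innate lymphoid cells, acts mainly on epithelial cells through IL-22RA1 and the same IL-10RB chain, and the soluble protein IL-22RA2 binds it and blocks it. IL-19, IL-20 and IL-24 form the IL-20 subfamily and use IL-20RB together with IL-20RA. IL-20 and IL-24 also use IL-20RB together with IL-22RA1.

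The count of Il22 depends on a neighbouring copy of the gene, because the deposited counts leave out reads that map to several places. Il22 (ENSMUSG00000074695.3) lies on chromosome 10 from 118204942 to 118210047 on the plus strand in mm10, and its copy Iltifb (ENSMUSG00000090461.2) on the minus strand from 118289629 to 118295038. Both coding sequences, without their stop codons, are 537 bases long and differ at 9 bases. The stretches that hold the differences are shown because, within the coding sequence, a single read can be told apart between the genes only where it covers one. Capitals mark the differing bases. The first pair of lines is coding bases 97 to 267, joined over introns.

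Il22: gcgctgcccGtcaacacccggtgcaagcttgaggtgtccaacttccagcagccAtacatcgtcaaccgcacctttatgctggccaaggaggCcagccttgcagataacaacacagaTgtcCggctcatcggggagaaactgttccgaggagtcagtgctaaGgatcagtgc

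Iltifb: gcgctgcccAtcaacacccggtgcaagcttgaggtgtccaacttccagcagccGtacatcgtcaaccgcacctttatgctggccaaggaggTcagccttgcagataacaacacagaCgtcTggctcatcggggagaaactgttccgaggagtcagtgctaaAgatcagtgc

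The second pair is coding bases 465 to 501.

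Il22: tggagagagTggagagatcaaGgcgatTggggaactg

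Iltifb: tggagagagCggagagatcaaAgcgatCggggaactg

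Counted from the first base of the start codon and written with the Il22 base first, the differences are G106A, A150G, C188T, T213C, C217T, G258A, T474C, G486A and T492C. The longest coding stretch without a difference is 215 bases. Over the whole transcripts, of 1110 and 1111 bases in GENCODE mouse release 21, the identity was 97.3%. Of all windows of 75 bases in the Il22 transcript, 29.9% also occur in Iltifb, and of windows of 150 bases 7.70% do. Read pairs were counted, and a mate that covers a difference can place its pair, so these window shares are not the share of pairs lost. No source used here gives the read length. The share of Il22 read pairs lost to the copy is therefore unknown, and the Il22 level may be understated.

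Upstream of the transcripts the genes part. Below are the RefSeq promoter windows (GRCm38.p6) cut at the GENCODE transcript starts, chr10:118204714-118204941 on the plus strand for Il22 and chr10:118295039-118295288 on the minus strand for Iltifb. They are shown because 1 gene of the pair was counted and the other nearly not. Capitals mark the stretch that aligned between both.

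Il22: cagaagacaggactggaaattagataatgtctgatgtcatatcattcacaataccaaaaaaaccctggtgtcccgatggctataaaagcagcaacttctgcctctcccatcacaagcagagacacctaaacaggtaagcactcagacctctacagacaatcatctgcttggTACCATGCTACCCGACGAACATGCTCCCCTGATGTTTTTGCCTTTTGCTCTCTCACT

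Iltifb: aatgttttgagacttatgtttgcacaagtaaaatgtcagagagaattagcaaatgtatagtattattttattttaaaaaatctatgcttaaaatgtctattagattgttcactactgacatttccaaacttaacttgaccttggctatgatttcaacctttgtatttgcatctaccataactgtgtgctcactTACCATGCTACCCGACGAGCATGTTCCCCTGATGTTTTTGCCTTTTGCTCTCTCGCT

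The aligned stretch is 57 bases long with 3 mismatches, next to the transcript start. The 171 bases before it in Il22 and the 193 bases before it in Iltifb had no part in the local alignment. In the counts, Il22 had 213, 131, 102 and 323 read pairs in replicates 1 to 4, and Iltifb had 0, 2, 0 and 0. Reads that mapped to a single place thus fell almost wholly on Il22.

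The cells held transcripts of 3 of the 5 cytokines, Il10, Il24 and Il22, at means of 38.3, 28.7 and 25.01 TPM. The other members of the IL-20 subfamily, Il19 and Il20, were at or near 0. Among the receptors, both chains of the IL-10 receptor were present, while Il22ra1 and Il22ra2 had no count in any library. Of the 9 genes, 5 were at 1 TPM or more in all 4 libraries, beside 47.6% of all protein-coding genes. No count in any library was found for 3 of the 9, beside 32.9% of protein-coding genes.

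**Figure D1:**
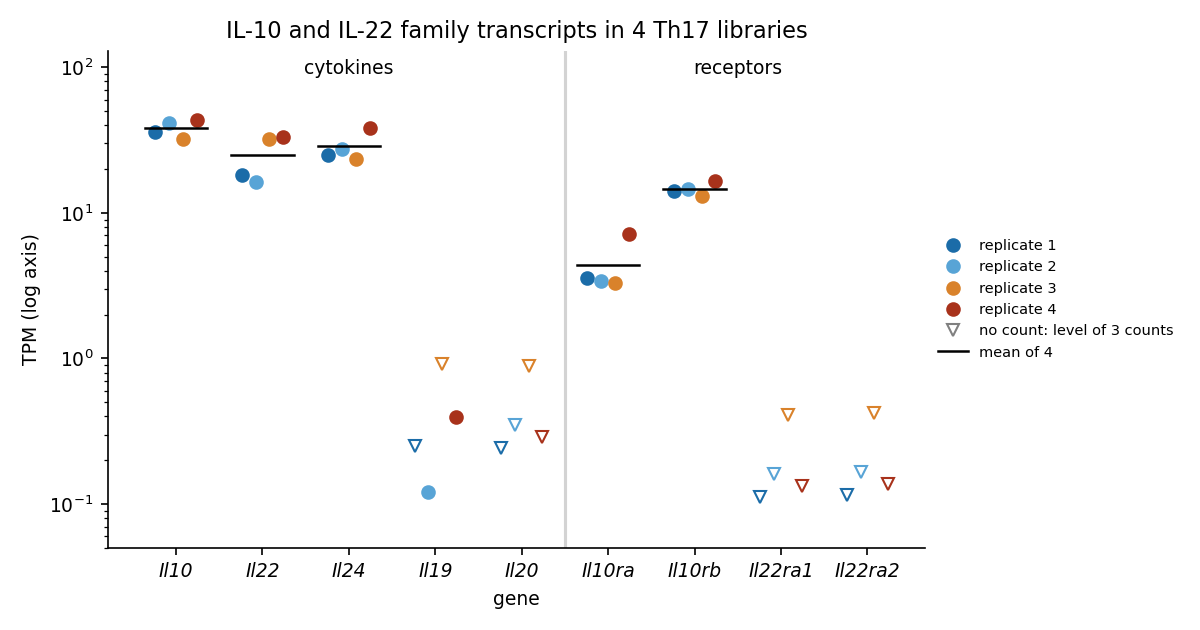
Level of each gene in TPM (log axis) in the 4 Th17 libraries, with a black line for the mean of each gene with over 5 counts. Il10, Il22 and Il24 sit between 16.3 and 43.7 TPM, Il10rb and Il10ra lower, and open triangles mark libraries with no count at the level that 3 counts would give.

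Il10 (ENSMUSG00000016529.5) had 35.9, 41.2, 32.4 and 43.7 TPM in replicates 1 to 4, from 493, 391, 121 and 502 counts. As counted, it was the highest of the 9 genes by mean, at 38.3 ± 5.11 TPM (SD, n = 4). It ranked 4635th of 21764 protein-coding genes. In bulk cells, a few cells with much of a transcript and many cells with little of it cannot be told apart.

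Il24 (ENSMUSG00000026420.16) had 25.1, 27.6, 23.5 and 38.5 TPM in replicates 1 to 4, with a mean of 28.7 ± 6.76 TPM (SD, n = 4). Replicate 4 was the highest, and the other 3 libraries lay close together. Its library range overlapped that of Il10, but within each of the 4 libraries Il24 was the lower of the pair. This IL-20 subfamily cytokine ranked 5519th among protein-coding genes.

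Il22 had 18.3, 16.3, 32.2 and 33.2 TPM in replicates 1 to 4, with a mean of 25.01 ± 8.95 TPM (SD, n = 4). Replicates 3 and 4 were high and replicates 1 and 2 low. The 95% Poisson intervals of the counts ran from 26.3 to 39.1 TPM in replicate 3 and from 29.7 to 37.02 TPM in replicate 4, against 15.9 to 20.9 TPM in replicate 1 and 13.6 to 19.3 TPM in replicate 2, so the gap between these libraries was larger than counting error. Such intervals cover counting error only. As counted, without pairs lost to Iltifb, the library range of Il22 overlapped that of Il24. Il24 was the higher in 3 of 4 libraries, the exception being replicate 3.

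The remaining cytokines were close to the limit of detection. Il19 (ENSMUSG00000016524.12) held 5 counts over all libraries, 4 of them in replicate 4 and 1 in replicate 2. Il20 (ENSMUSG00000026416.12) held none, which allows up to 0.241, 0.349, 0.887 and 0.289 TPM in replicates 1 to 4 (a count of 0 is taken to allow 3). Both are known mainly as products of myeloid and epithelial cells.

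Taken as a share of the summed TPM of the 3 expressed cytokines, Il10 made up 45.3%, 48.4%, 36.7% and 37.9% in replicates 1 to 4. Il24 made up 31.7%, 32.4%, 26.7% and 33.4%, and Il22 made up 23.1%, 19.1%, 36.6% and 28.8%. As counted, Il22 had the smallest share of the 3 in replicates 1, 2 and 4, and in replicate 3 it nearly equalled Il10. Read pairs lost to Iltifb are missing from the Il22 share, so its true place among the 3 is not known.

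Il10rb (ENSMUSG00000022969.13), the chain that the receptors for IL-10, IL-22 and interferon lambda share, had 14.04, 14.6, 13.1 and 16.6 TPM in replicates 1 to 4 and a mean of 14.6 ± 1.48 TPM (SD, n = 4). It was the steadiest of the 5 expressed genes. Its exons overlap those of Gm21970, a gene model on the same strand, over 569 bases or 14.9% of its length. Reads on the shared bases were not counted, and Gm21970 held 0 counts. The Il10rb level may therefore be understated.

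Il10ra (ENSMUSG00000032089.16; chromosome 9, 45253837 to 45269149, minus strand), the high-affinity chain for IL-10, had 3.57, 3.39, 3.31 and 7.18 TPM in replicates 1 to 4, with a mean of 4.36 ± 1.88 TPM (SD, n = 4). Replicate 4 stood above the other 3, whose values lay within their counting intervals of each other. The interval of replicate 4 was 6.26 to 8.19 TPM, and the highest upper bound among the other 3 was 4.65 TPM, in replicate 3.

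Il22ra1 (ENSMUSG00000037157.8), the signalling chain that makes a cell responsive to IL-22, had no count in any library, which allows up to 0.111, 0.161, 0.41 and 0.133 TPM in replicates 1 to 4. Il22ra2 (ENSMUSG00000039760.8), which encodes the soluble inhibitor of IL-22 and is known from dendritic cells, also had none, which allows up to 0.114, 0.166, 0.421 and 0.137 TPM. At this depth neither transcript was detectable.

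In order of mean level as counted the genes ran Il10, Il24, Il22, Il10rb, Il10ra, Il19, and then Il20, Il22ra1 and Il22ra2 at 0. The place of Il22 may be too low, because read pairs lost to Iltifb are missing from it. Neighbours overlapped in their library ranges from Il10 down to Il10rb. The lowest Il22 library, at 16.3 TPM, was just under the highest Il10rb library, at 16.6 TPM, although Il22 exceeded Il10rb within each library. Il10rb and Il10ra did not overlap, nor did Il10ra and Il19.

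Ligands and receptor chains were then compared within the same library, on the log2(TPM + 1) scale, in 6 pairs. Il10 exceeded Il22 by 0.65 ± 0.57 log2 units (SD, n = 4), with ratios of 1.96, 2.53, 1.01 and 1.32 in replicates 1 to 4. The Il22 level leaves out read pairs lost to Iltifb, so these ratios may be overstated. Il10ra differed from Il10rb by -1.59 ± 0.33 log2 units and stood at 0.254, 0.233, 0.253 and 0.432 times its partner chain. Il10 exceeded Il10ra by 2.92 ± 0.34 log2 units, or by 1.58 log2 units in CPM without correction for length. Relative to chains with no count, Il10rb was at least 373-fold higher than Il22ra1 and Il22 at least 577-fold higher than Il22ra2 in counts per base pooled over the libraries, with 3 counts over the group in place of 0. Each of these 5 pairs had 1 sign in 4 of 4 libraries and p = 0.13 in the exact sign-flip permutation test (two-sided), or 0.15 after Benjamini-Hochberg adjustment over the 6 pairs. With 4 libraries this test has no smaller p to give, and 0.05 was out of reach. For Il10rb over Il22ra1 and Il22 over Il22ra2 the sign was fixed in advance, because the second gene had no count in any library. Their sign and p are therefore not a result. In the last pair, Il22ra1 and Il22ra2 were both without counts and could not be compared.

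**Figure D2:**
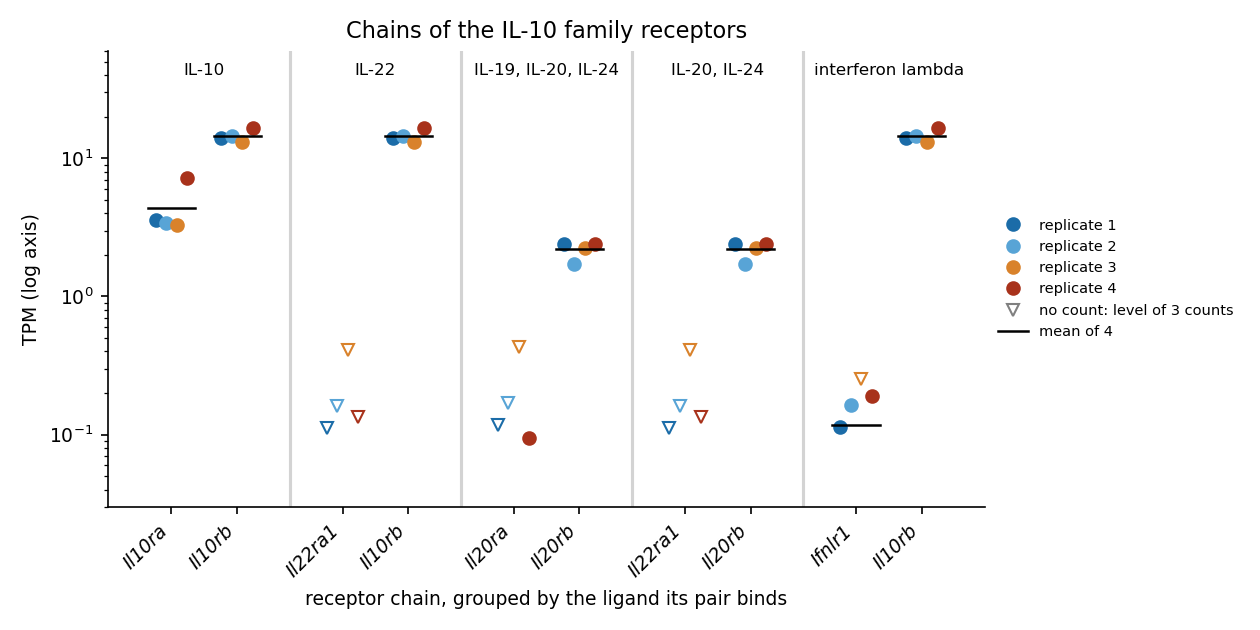
Levels in TPM (log axis) of receptor chains in the 4 Th17 libraries, grouped in the pairs that bind each ligand; black lines are means and open triangles mark libraries with no count at the level of 3 counts. Of the 5 pairs drawn, the IL-10 receptor is the 1 pair with both chains at or above 1 TPM in every library.

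The other class 2 cytokine and receptor genes place these values in their family. Of 10 such genes, 6 were at 1 TPM or more in all libraries. The 3 highest were the interferon receptor chains Ifngr1, at 45.6 ± 9.38 TPM, Ifngr2, at 32.3 ± 5.14 TPM, and Ifnar1, at 27.4 ± 4.2 TPM (SD, n = 4). Il20rb, the chain common to the receptors of the IL-20 subfamily, had 2.40, 1.71, 2.25 and 2.39 TPM in replicates 1 to 4, while its partner Il20ra held 2 counts, both in replicate 4. Ifnlr1, which pairs with IL-10RB to bind interferon lambda, held 17 counts and had 0.117 TPM in the mean. The interferon lambda genes Ifnl2 and Ifnl3 had no count, but they are close copies of each other, and reads that map to both would not have been counted.

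The signalling genes downstream of these receptors were all expressed. All 8 reached 1 TPM in each library, and the highest were the feedback inhibitor Socs1 at 277 ± 20.3 TPM, the transcription factor Stat3 at 210.2 ± 13.5 TPM and Stat5b at 184 ± 9.25 TPM (SD, n = 4). Socs3, an inhibitor induced by STAT3, had 44.9, 45.3, 44.4 and 66.1 TPM in replicates 1 to 4. It was 1 of 5 genes of the 8 that were highest in replicate 4, beside 33.2% of all genes tested for spread. None of these 8 genes, of the other class 2 genes or of the regulators below passed the test of spread described further on.

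Of 12 regulator genes that are known to act on Il10 or Il22 in T cells, 11 reached 1 TPM in each library. Prdm1, which encodes BLIMP1, an inducer of Il10, was the exception at 0.186 ± 0.0438 TPM (SD, n = 4), from 31 counts over the 4 libraries. Maf, an activator of Il10, was even across libraries at 118.8 ± 4.13 TPM (SD, n = 4). Ahr, the aryl hydrocarbon receptor, which promotes Il22, had 47.96, 41.8, 61.2 and 33.1 TPM in replicates 1 to 4. It was highest in replicate 3 and lowest in replicate 4, the libraries where Il22 was highest, so the order of Ahr over the libraries was not that of Il22. Apart from Stat3, the remaining means were 746 TPM for Bhlhe40, 698 TPM for Irf4, 389 TPM for Batf, 158 TPM for Rbpj, 80.5 TPM for Notch1, 71.4 TPM for Gfi1, 55.99 TPM for Nfil3 and 40.2 TPM for Rora. By TPM, 7 of the 12 regulators were highest in replicate 4, beside 33.2% of all genes tested for spread by TMM-normalised CPM (described further on). Of the 7, Rbpj was highest in replicate 3 by that CPM, and Prdm1 had too few counts for that comparison. Among these 7, Nfil3 had 50.6, 53.3, 44.0 and 76.1 TPM in replicates 1 to 4.

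Il10, Il19, Il20 and Il24 lie side by side on chromosome 1, and their levels did not go together. From Il24 (positions 130882074 to 130887454, minus strand, mm10) the cluster runs through Il20 and Il19, on the same strand, to Il10 (131019845 to 131024974, plus strand). Its outer genes, Il24 and Il10, were expressed, while the genes between them had 0 and 5 counts. Beyond Il10, Mapkapk2, a kinase gene 28.7 kb away, had 320 ± 13.6 TPM (SD, n = 4). Beyond Il24, Fcmr, which encodes a receptor for IgM and ends 1.3 kb from it on the other strand, had 2.58 ± 0.334 TPM, and Pigr, the polymeric immunoglobulin receptor gene, 5 counts.

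**Figure D3:**
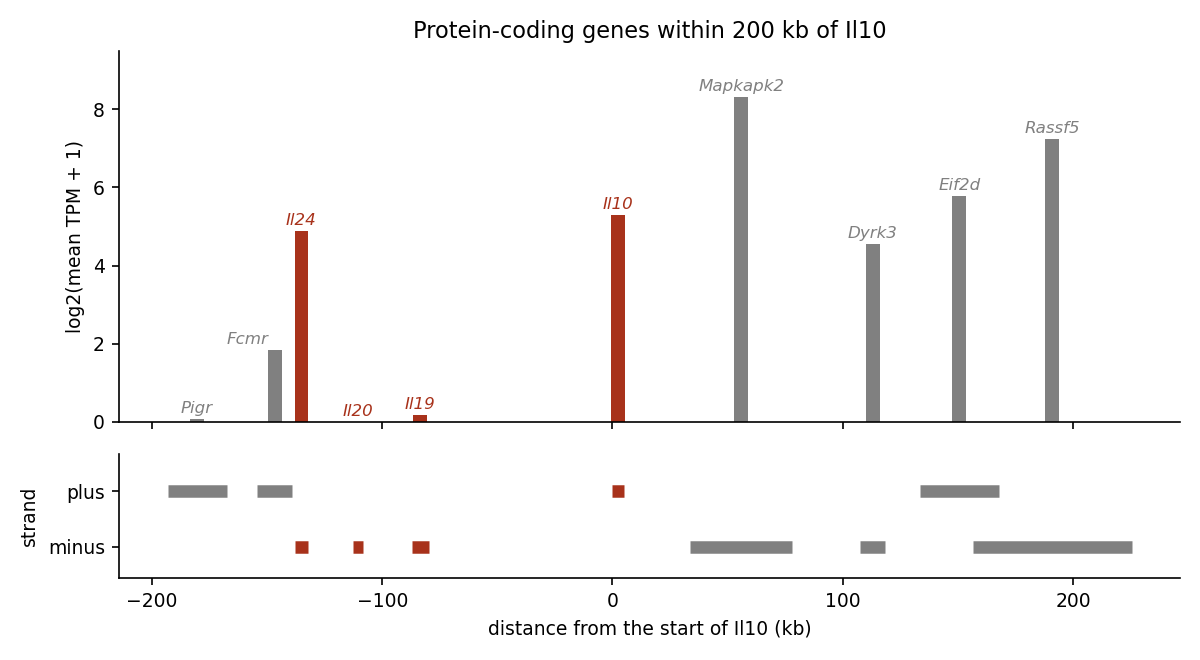
Mean level as log2(mean TPM + 1) of the protein-coding genes within 200 kb of Il10 (upper panel, red for family members, gray for other genes) and their spans by strand (lower panel), by distance from the start of Il10. Il24 and Il10 stand at 28.7 and 38.3 TPM, with Il20 and Il19 between them at 0 and 0.129 TPM.

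Il10rb, Il22ra1 and Il22ra2 also lie beside relatives, while no gene of the class 2 list was found within 200 kb of Il10ra. Il10rb, on chromosome 16 (91406164 to 91425834), starts 0.6 kb after Ifnar2 and is followed by Ifnar1 and Ifngr2, and all 4 of these receptor genes were expressed, with means of 14.6 TPM for Il10rb, 19.9 TPM for Ifnar2, 27.4 TPM for Ifnar1 and 32.3 TPM for Ifngr2. Il22ra2, on chromosome 10 (19621998 to 19634681), had no count although Ifngr1, 11.8 kb away on the same strand, was the highest gene of the class 2 list. Il22ra1, on chromosome 4 (135728172 to 135752140), lies 20 kb from Ifnlr1, and both were at or near 0. Within 200 kb of Il22, 1 of 10 other protein-coding genes (Mdm1) reached 1 TPM in each library. The 10 include the copy Iltifb, and reads that map to several places were not counted. Sequence shared among the others was not examined, so their lack of counts may not mean a lack of transcripts. Ifng, which lies further along chromosome 10 from position 118441046, held 2 counts.

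The spread over the libraries was tested with edgeR over all genes, as each gene's dispersion against the trend for its abundance. The filter on low counts left 12156 genes, 5 of the 9 members among them (Il10, Il22, Il24, Il10ra and Il10rb). None of the 5 passed, beside 0.00823% of all genes tested. The adjusted p was 0.875 for Il22, 0.979 for Il10ra and 0.991 for the other 3 (edgeR quasi-dispersion test, Benjamini-Hochberg). At an unadjusted p under 0.05 in that edgeR fit there were 2 members, Il22 and Il10ra, beside 596 genes in all. DESeq2 marked none of the 5 as a dispersion outlier. The 1 gene that passed the edgeR test was Xist, whose highest library was 326 times its lowest in TMM-normalised CPM. Ahr, with a ratio of 1.88, had an adjusted p of 0.558 in the edgeR test. Not passing therefore does not show that the spread of a gene was ordinary.

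As a description, the highest library over the lowest in TMM-normalised CPM (counts scaled by library size) was 2.13 for Il10ra, 2.02 for Il22, 1.60 for Il24, 1.32 for Il10 and 1.24 for Il10rb. The median of this ratio over the 200 genes nearest in abundance was 1.42, 1.27, 1.24, 1.22 and 1.21 for the same genes, and over all genes tested it was 1.19. A ratio of at least 1.5 was found for 3 of the 5, beside 18.6% of all genes tested. The number of genes is too small to call the family more spread than others. Without replicate 4 the ratio was 1.06 for Il10ra and 1.16 for Il24, whereas for Il22 it was 2.00.

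**Figure D4:**
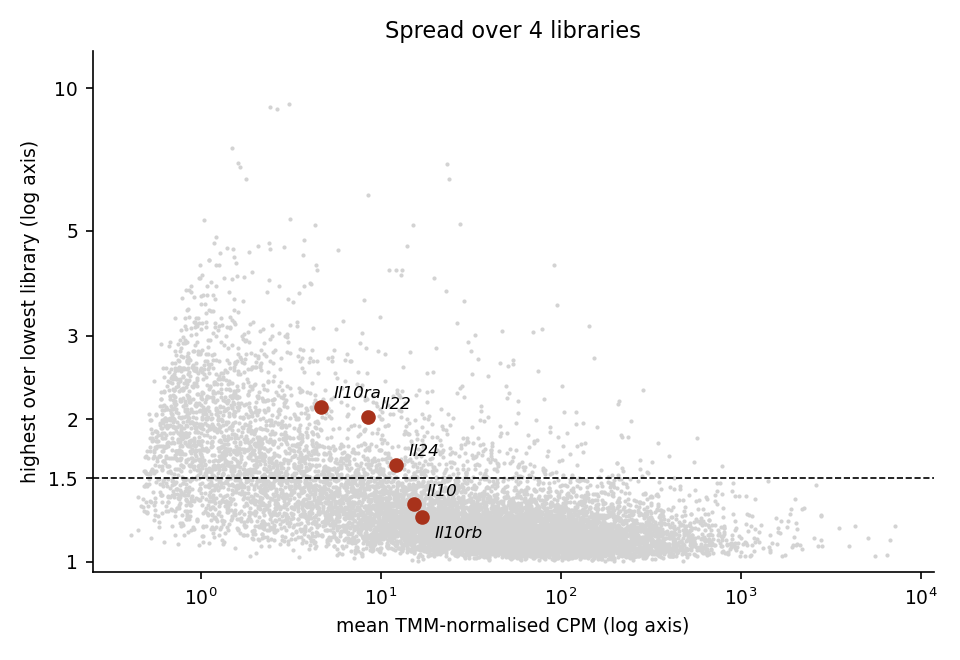
Ratio of the highest to the lowest of the 4 libraries against mean CPM (both log axes, TMM-normalised) for the genes past the filter, in gray, with the 5 expressed members in red. The dashed line is at 1.5, Il10ra, Il22 and Il24 lie above it, and 2 genes above a ratio of 12 are outside the axis.

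All 5 expressed members were highest in replicate 4, beside 33.2% of all genes tested, and this held for TMM, library-total and median-ratio scaling. For Il22 the lead of replicate 4 over replicate 3 was within counting error. By TPM, Il10, Il24, Il10ra and Il10rb were lowest in replicate 3, and Il22 was not. The share of all genes lowest in that library was not computed. For Il10ra, replicates 1 to 3 lay within counting error of each other. Of the 6 other class 2 genes past the filter, 4 were highest in replicate 4 as well, all of them interferon receptor chains (Ifnar1, Ifnar2, Ifngr1 and Ifngr2).

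**Figure D5:**
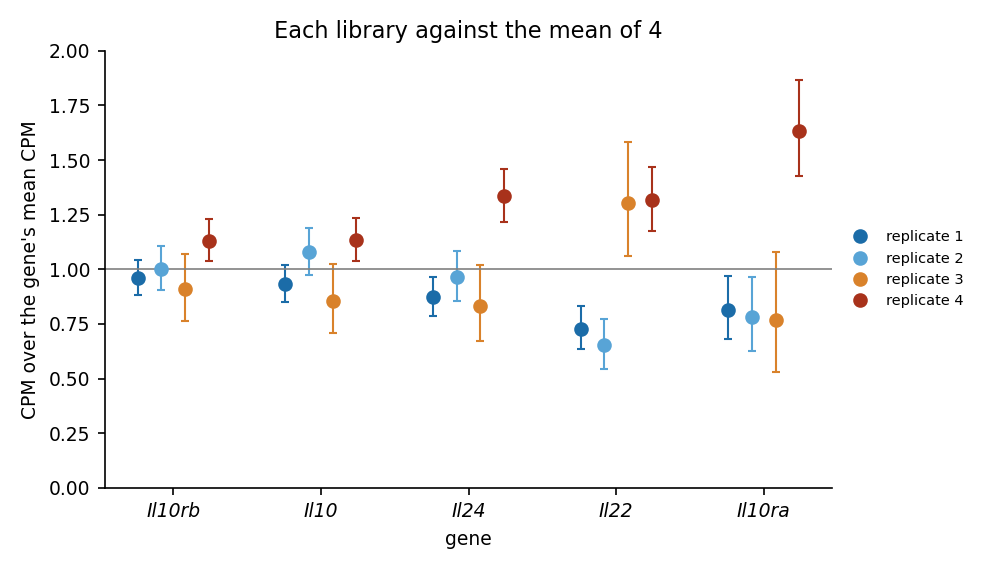
CPM of each library over the gene's mean CPM (TMM-normalised) for the 5 expressed members, with 95% Poisson intervals of the counts as bars. Replicate 4 stands apart for Il10ra and Il24, and replicates 3 and 4 stand above 1 and 2 for Il22.

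The split of Il22 ran along the difference in sex-linked transcripts between the libraries. Xist, the RNA of the inactive X chromosome, stood at 177, 193, 2.15 and 0.598 TPM over replicates 1 to 4, high where Il22 was low. For the Y-linked gene Ddx3y the levels were 0.165, 0.133, 59.7 and 55.2 TPM, high where Il22 was high. Whether this difference has a part in the Il22 levels was not tested. Il10, Il24, Il10ra and Il10rb did not follow it, since replicate 3 was low and replicate 4 high for each.

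The protein-coding genes most like each of the 3 more spread members over the 4 libraries were listed by the root mean square difference of centred log2 CPM, among 11068 genes. For Il22 they were Mab21l3 (0.0548), Gad2 (0.0934), Pbx4 (0.123), Prf1 (0.139) and Pctp (0.145). For Il24 they were Slfn5 (0.0132), Zscan2 (0.0221), Capsl (0.0234), Eif2ak2 (0.0242) and Parp9 (0.0264). Of these, Slfn5 had 26.8, 29.4, 25.5 and 40.05 CPM in replicates 1 to 4, where Il24 had 10.6, 11.7, 10.1 and 16.2 CPM. For Il10ra they were Ifitm1 (0.0375), H2-Q7 (0.0422), Ttc39c (0.0455), Slc44a5 (0.0481) and Cdh17 (0.0517). All 5 genes listed for Il22, Zscan2 and Capsl for Il24, and Ifitm1 and Slc44a5 for Il10ra were under 6 CPM in every library and so open to counting error. With 4 libraries many genes share a pattern, and none of these 15 genes passed the edgeR test of spread.

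Markers of cells that are other known sources of these transcripts had means of at most 4.49 TPM. The highest was Ikzf2 of the regulatory T cell list, just above the mean of 4.36 TPM for Il10ra. Of the lists for macrophages and monocytes, dendritic cells, B and plasma cells, and gamma-delta and innate lymphoid cells, 0 members of 6, 6, 6 and 5 in the files reached 1 TPM in each library, and their summed levels ran from 1.13 to 2.70, 0.284 to 0.418, 0.241 to 0.795 and 0.563 to 0.966 TPM over the libraries. The macrophage sum came mostly from 1 of its genes, with a mean of 1.73 TPM. Without any count were Siglech, Clec9a, Ms4a1, Zbtb16 and Ncr1. In the regulatory T cell list Foxp3 had 0.382, 0.277, 1.85 and 0.200 TPM and Lrrc32 0.407, 0.854, 0.374 and 1.34 TPM in replicates 1 to 4. Foxp3 was highest in replicate 3, where Il10 was lowest, whereas Lrrc32 was lowest there and highest in replicate 4, as Il10 was. Ikzf2 was the 1 gene of this list at 1 TPM or more in each library, with 5.00, 3.76, 5.89 and 3.30 TPM in replicates 1 to 4. The summed level of Foxp3, Lrrc32 and Ikzf2 was 4.84 to 8.11 TPM, mostly Ikzf2. The list for epithelial cells and keratinocytes, which use Il22ra1, summed to 1.43 to 2.45 TPM, mostly Krt18, with no count for Krt14 or Cdh1.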

How the data were processed

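RNA from Th17 cells was sequenced in 4 libraries, numbered by the labels. The deposited counts are whole read pairs per gene, counted by the authors over exons (GENCODE mouse release 13, featureCounts 1.4.6-p4), reverse-stranded (option 2), both mates aligned, per the file headers; reads on several places or several genes were not counted. The build is mm10 per the labels, and the aligner version and read length are not given in the sources used here. The labels say total RNA, but the linked library protocol is named for poly(A) RNA.

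TPM were computed here with the exonic length the files give for each gene. Symbols came from GENCODE mouse release 21 (50376 identifiers matched). Spread between libraries was fitted on the whole table with edgeR 4.0.16 (intercept alone, TMM, filterByExpr; upper-tail F test of quasi-dispersion over its trend, adjusted p of 0.05), tested on simulated data, with DESeq2 1.42.0 as an alternative. Pairs were tested by exact sign-flip permutation. Genes named beyond the members are the 3 highest of a list and those below 1 TPM, the regulators, the 5 most alike genes, neighbours, and sex-linked genes, the last chosen after their values were seen. The members and lists were chosen with earlier results of these data known. Sequences are from GENCODE transcripts and RefSeq (GRCm38.p6), aligned with Biopython 1.88.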

Additional observations from a re-analysis of the deposited data

Results flagged for a closer look

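Il10ra in replicate 4 stood far from the other libraries, at 7.18 TPM against 3.57, 3.39 and 3.31 TPM in replicates 1 to 3. The gap to the nearest library was 0.933 of the whole range, above Dixon's 95% critical value for 4 samples. Chance flags about 1 in 20 groups, and 6 members with a nonzero count were looked at.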

How the results depend on the processing

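The number of genes called for spread depended on the settings. It was 1 as reported, 126 with no filter, 5 with a mean count of at least 50, and 103 as DESeq2 dispersion outliers, and leaving out 1 library at a time gave 1 to 20, the highest without replicate 4. No member was called in any of these settings. The lowest adjusted p over the edgeR settings was 0.170 for Il22 and 0.340 for Il10ra, both with no filter, and the highest were 0.986 and 0.997. The ratio of highest to lowest library for Il10ra was 1.06 to 2.13 over the libraries left out, and rested on replicate 4. For Il10 over Il22, Il10ra over Il10rb and Il10 over Il10ra, no setting run reversed the sign. For Il10rb over Il22ra1 and Il22 over Il22ra2 none could, because the second gene had no counts. A pseudocount of 0.1 gave 7.19 log2 units for Il10rb over Il22ra1 and 7.90 for Il22 over Il22ra2, and the Il10 to Il22 difference ran from 0.44 to 0.87 log2 units over the libraries left out. The levels of the 9 members stayed within 1 SD under TMM scaling and with protein-coding genes alone. No paired comparison between groups was possible because there is 1 group. The depth of replicate 3 limits the lowest genes.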

Other observations

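Genes that mark IL-10-producing T cells in other settings were uneven. Of 8, 6 reached 1 TPM in each library, led by Ctla4 at 2801 ± 373 TPM, Pdcd1 at 452 ± 70.3 TPM and Lag3 at 128 ± 17.6 TPM (SD, n = 4). Havcr2, which encodes TIM-3, held 9 counts over the 4 libraries, and Itga2, which encodes CD49b, a marker used with LAG3 for type 1 regulatory T cells, had 0.498, 0.393, 0.167 and 0.650 TPM in replicates 1 to 4. By TPM, 6 of the 8 genes were highest in replicate 4, the exceptions being Lag3 and Pdcd1. By TMM-normalised CPM, 33.2% of all genes tested for spread were highest there. Of the 6, Havcr2 and Itga2 had too few counts to pass the filter, so their highest library is open to counting error. Lag3 had 129, 142, 103 and 138 TPM in replicates 1 to 4. Pdcd1 had 480.4, 437, 528 and 363 TPM, highest in replicate 3, where Il10 was lowest, and lowest in replicate 4.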
